A study of Mus musculus with 96 samples.

Results

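The 6 genes described here are those of the aryl hydrocarbon receptor pathway and the Cyp1 family, namely Cyp1a1, Cyp1a2, Cyp1b1, Ahr, Ahrr and Tiparp. They were chosen by symbol from the 20155 genes with expression values, out of 21990 genes in the deposited table. Their expression was measured by RNA sequencing in pancreatic islets and liver of 48 male C57BL/6N mice, which were 4 weeks old on arrival. Mice received a chow diet (CD, LabDiet 5001, 13.5% fat) or a high-fat diet (HFD, Research Diets D12492, 60% fat), and 4 mice per diet were taken at each of weeks 4, 8, 12, 16, 20 and 24, which gave 24 groups and 96 libraries. Each mouse gave 1 islet and 1 liver library. The mice of both diets shared the strain, the sex, the supplier and free access to food. CD is a grain-based chow and HFD a purified diet, so fat content and the other ingredients cannot be told apart.

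AHR, the product of Ahr, is a ligand-activated transcription factor that waits in the cytosol bound to HSP90 chaperones. When it binds a ligand such as a dioxin, a plant indole or a tryptophan metabolite, it enters the nucleus, pairs with ARNT and binds dioxin response elements near its target genes. Cyp1a1, Cyp1a2 and Cyp1b1 encode cytochrome P450 enzymes that oxidise planar aromatic compounds and are classical AHR targets, while Ahrr and Tiparp are AHR targets whose products restrain the receptor. Cyp1a2 is a constitutive enzyme of pericentral hepatocytes, whereas Cyp1a1 is best known as an inducible gene with a low resting level.

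On the mouse genome GRCm38, Cyp1a1 (chr9:57687928-57703824, plus strand) and Cyp1a2 (chr9:57676937-57683655, minus strand) lie head to head, with 4272 bases between the gene ends and 13958 bases between the start sites of the RefSeq promoter table. Cyp1b1 lies on chr17:79696282-79715330 (minus strand), Ahr on chr12:35497979-35534989 (minus), Ahrr on chr13:74211117-74292331 (minus) and Tiparp on chr3:65528447-65555518 (plus). In GENCODE, Ahr overlapped the lincRNA Gm48236 and Tiparp the pseudogene 4931440P22Rik, each on the opposite strand, and the strand setting of the counting is not given in the sources used here, so reads of these pairs could not be told apart. The RefSeq promoter table (GRCm38.p6, 250 bases before and 50 from the start site) held 5 of the 6 genes, all but Ahr. The promoters of the 2 neighbouring Cyp1a genes, which carry the main differences between the diets, and of Tiparp, which showed no such decrease, are shown 5′ to 3′ on the strand of the gene. Capitals mark each match to GCGTG, the core of the dioxin response element, or to its reverse complement CACGC.
Cyp1a1, chr9:57697363-57697662, plus strand: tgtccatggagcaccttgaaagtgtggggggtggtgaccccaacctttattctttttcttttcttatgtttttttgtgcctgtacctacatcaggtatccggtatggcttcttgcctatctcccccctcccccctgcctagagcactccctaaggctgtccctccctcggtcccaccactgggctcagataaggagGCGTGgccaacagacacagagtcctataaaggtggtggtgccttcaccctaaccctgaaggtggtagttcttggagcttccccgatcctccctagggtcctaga
Cyp1a2, chr9:57683606-57683905, minus strand: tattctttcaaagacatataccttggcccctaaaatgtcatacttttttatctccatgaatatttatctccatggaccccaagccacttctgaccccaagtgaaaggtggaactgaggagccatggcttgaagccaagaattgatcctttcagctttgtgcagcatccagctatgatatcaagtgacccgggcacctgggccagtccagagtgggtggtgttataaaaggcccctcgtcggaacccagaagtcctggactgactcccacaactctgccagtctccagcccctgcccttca
Tiparp, chr3:65528197-65528496, plus strand: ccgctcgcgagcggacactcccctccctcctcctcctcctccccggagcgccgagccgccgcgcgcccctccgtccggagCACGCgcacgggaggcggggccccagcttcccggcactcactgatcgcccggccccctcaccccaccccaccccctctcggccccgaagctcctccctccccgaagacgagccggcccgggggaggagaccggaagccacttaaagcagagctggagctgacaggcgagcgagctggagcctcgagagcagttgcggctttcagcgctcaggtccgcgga

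The Cyp1a1 window held 1 match, beginning at base -54 from the start site, and the Tiparp window held 1 at base -170 on the opposite strand. The window of Cyp1a2 held 0 matches, that of Cyp1b1 1 and that of Ahrr 3. Of 32851 promoters of the same length, 10639 (32.4%) held at least 1 match on either strand, so a match is common and is given as a description only. The promoter windows of Cyp1a1 and Cyp1a2 thus differed in the core motif, while the transcripts shared stretches of sequence. In the longest GENCODE protein-coding transcripts, 94 of the 50-base windows of Cyp1a1 (3.55%) were also in Cyp1a2, and 0 were in Cyp1b1. Counting could split reads from the shared stretches between the 2 Cyp1a genes, and Cyp1a1 values in liver, where Cyp1a2 is abundant, are uncertain for this reason.

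Values are FPKM, fragments per kilobase of transcript scaled to the mapped total of the library, which the authors deposited with 2 decimals. Levels of different genes can be compared on this scale because it is per length. In CD liver the order was Cyp1a2, with a mean of 356 FPKM ± 91.9 (SD, n = 24), Ahr (6.43 ± 2.02), Tiparp (1.20 ± 0.347), Cyp1a1 (0.370 ± 0.188), Cyp1b1 (0.106 ± 0.0517) and Ahrr (0.0217 ± 0.0166). The ranges of Tiparp and Cyp1a1, of Cyp1a1 and Cyp1b1, and of Cyp1b1 and Ahrr overlapped, while Cyp1a2 and Ahr stood clear of the genes next to them. In CD islets the order was Tiparp (3.25 FPKM ± 0.758), Ahr (1.61 ± 0.367), Cyp1b1 (0.217 ± 0.154), Cyp1a1 (0.129 ± 0.0903), Ahrr (0.0229 ± 0.0130) and Cyp1a2 (0.010 ± 0.0156). There, only the step from Ahr to Cyp1b1 separated the ranges of neighbours. Cyp1a1 was above 0 in all 24 CD islet libraries but below 0.5 FPKM in each.

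Differences between tissues and diets were tested on log2(FPKM + 1) by limma with Benjamini-Hochberg adjustment over all genes tested, and a gene was called at an adjusted p under 0.05. Genes needed at least 1 FPKM in at least 24 libraries of the fit, which within a tissue Ahr and Tiparp met in both tissues and Cyp1a2 in liver. Cyp1a1, Cyp1b1 and Ahrr in both tissues and Cyp1a2 in islets did not, and their values come from the same fit with no filter. A log2(FPKM + 1) difference strongly understates the change of such low genes. The sources used here name no separate cultures or pools, and each library is from 1 mouse, so the tests measure the spread between mice.

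In CD mice Cyp1a2 was at least 229.12 FPKM in each liver and at most 0.04 in each islet library; it met the filter through liver alone, so no test is given for it. Ahr was 1.47 log2 units (SE 0.0695, adjusted p = 2.4e-23) higher in liver than in islets. Tiparp was lower in liver, by -0.95 log2 units (SE 0.0577, adjusted p = 1.8e-19). Among all 11787 genes tested 95.4% were called between the tissues, with a median difference of -0.66, which became -0.011 with median ratio scaling, so a call here says little by itself. With no filter, Cyp1a1 was 0.27 log2 units higher in liver (SE 0.0370, adjusted p = 1.3e-08), Cyp1b1 differed by -0.13 (SE 0.0373, adjusted p = 0.0018) and Ahrr by -0.0018 (SE 0.0060, adjusted p = 0.77). The labelled tissues matched their markers. The hepatocyte marker Alb was between 16734 and 46057 FPKM in liver and between 0.12 and 48.8 FPKM in islets, and summed beta cell markers were between 576919 and 994676 FPKM in islets and between 32.8 and 3775 in liver. Beta cell transcripts in liver were unequal between diets, with a median Ins2 of 21.59 FPKM on CD and 0 on HFD. Of 3 tested beta cell markers 2 fell in liver on HFD, where 6.88% of all genes fell. Their source in liver was not tested.

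The largest diet difference in FPKM among the 6 genes was that of Cyp1a2 in liver, which had the lower mean on HFD at each of the 6 time points. Over the 6 weeks the mean was 356 FPKM ± 91.9 (SD, n = 24) on CD and 196 ± 76.0 on HFD. Cyp1a2 metabolises caffeine, aromatic amines and oestrogens. At week 4 the 4 CD livers held 363.06, 390.03, 423.72 and 593.49 FPKM and the 4 HFD livers 215.10, 316.10, 326.97 and 371.63. The diets overlapped by a single HFD mouse, which lay above the lowest CD mouse. At week 8 the CD livers held 284.35, 317.34, 346.47 and 510.94 FPKM and the HFD livers 69.85, 97.19, 97.81 and 299.95. All but 1 of the HFD mice were below 98 FPKM, and the fourth lay within the CD range.

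At week 12 Cyp1a2 was 264.51, 330.61, 337.21 and 463.88 FPKM in CD livers and 142.83, 157.75, 165.89 and 217.57 in HFD livers. At week 16 it was 258.31, 265.36, 269.09 and 367.35 on CD and 141.99, 158.14, 162.28 and 201.94 on HFD. The diets did not overlap at either of these weeks, with every HFD mouse below every CD mouse. At week 20 the values were 229.12, 354.77, 424.93 and 480.64 FPKM on CD and 134.42, 145.98, 219.24 and 249.41 on HFD, and 1 CD mouse fell among the HFD mice. At week 24 they were 231.10, 324.74, 324.89 and 389.16 on CD and 160.82, 213.41, 216.03 and 228.38 on HFD, which again did not overlap, although the gap between the nearest mice was small.

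**Figure D1:**
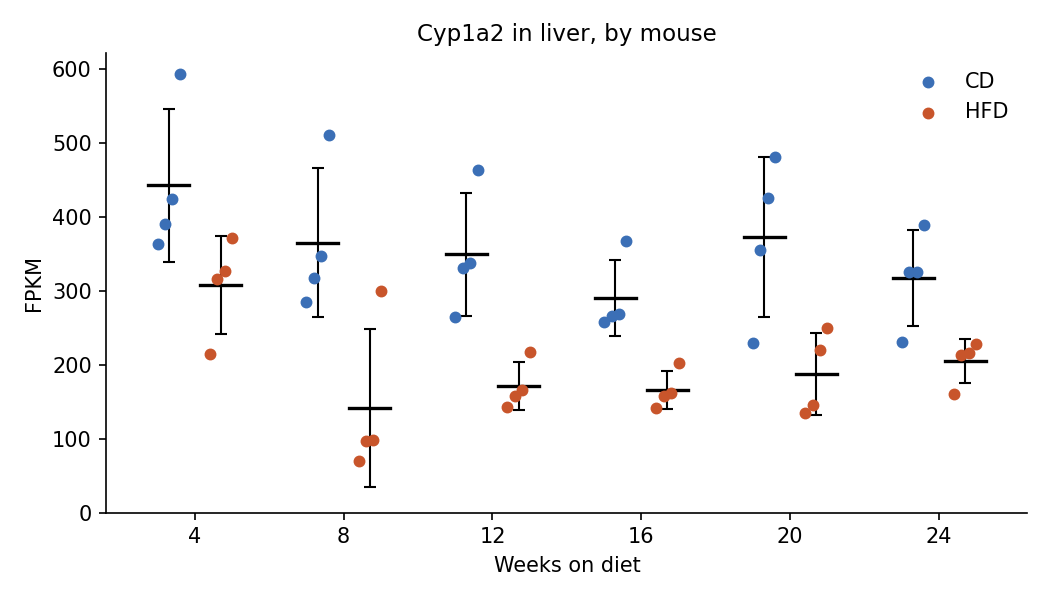
Liver Cyp1a2 in FPKM (vertical axis, from 0) against weeks on diet, with 1 point per mouse, black lines for the mean and bars for the SD of 4 mice. HFD means (orange) lie between 141 and 307.4 FPKM and CD means (blue) between 290 and 443, with the diets apart at weeks 12, 16 and 24.

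Averaged over weeks, the difference in liver Cyp1a2 was -0.92 log2 units (SE 0.114, adjusted p = 4.3e-08, limma), which corresponds to 0.529 times the CD level. It ranked 172 of 9982 genes by p, and 41.3% of these genes were called. It was the 34th in size among the 2777 genes with a lower value on HFD. Of the called genes 3437 were higher and 687 lower on HFD, and with median ratio scaling, which sets the typical gene equal between libraries, 1589 were higher and 2230 lower. Cyp1a2 was lower under both scalings. In the separate weekly tests the differences were -0.53 (adjusted p = 0.33), -1.57 (0.066), -1.01 (0.013), -0.80 (0.010), -0.98 (0.095) and -0.62 (0.13) log2 units from week 4 to week 24, so Cyp1a2 was called at weeks 12 and 16. Week 8 was called without mouse HFD217 (-2.01, adjusted p = 0.0012), and with all 12 groups in one fit weeks 8 and 20 were called and week 16 was not (adjusted p = 0.072). The share of all genes called in liver was 0.0506%, 7.49%, 10.6%, 7.43%, 2.47% and 0.837% at these weeks. The share of genes with diets that did not overlap was 6.93%, 10.5%, 13.7%, 11.9%, 7.69% and 7.94%, against which the 3 separated weeks of Cyp1a2 can be read. The mean difference at weeks 16 to 24 minus that at weeks 4 to 12 was 0.24 log2 units (SE 0.228, adjusted p = 0.86), and 0.0601% of genes were called in that contrast.

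Over age, Cyp1a2 passed the test for a change among weeks on HFD (F-test, adjusted p = 0.0056) and not on CD (adjusted p = 0.44), and the difference between the diets in this respect was not tested. The HFD mean was 307.4 FPKM ± 66.1 (n = 4) at week 4, 141 ± 107 at week 8 and 204.7 ± 29.9 at week 24. In liver 57.6% of genes changed among weeks on CD and 50.4% on HFD. Mice of a week may also share a day of handling, so age and handling cannot be told apart.

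Cyp1a1, the inducible neighbour of Cyp1a2, was lower on HFD in both tissues at levels far below 1 FPKM. In islets the mean was 0.129 FPKM ± 0.0903 (SD, n = 24) on CD, and on HFD 15 of 24 libraries were listed at 0 and the highest stood at 0.04. The smallest value above 0 in the table was 0.01. The depth behind a value is unknown, so a listed 0 does not show that the transcript was absent. At week 4 the CD islets held 0.09, 0.12, 0.19 and 0.42 FPKM and the HFD islets 0, 0, 0.02 and 0.03. At week 8 they held 0.05, 0.06, 0.13 and 0.24 on CD and 0, 0, 0 and 0.02 on HFD. The diets did not overlap at either week. At week 12 the values were 0.01, 0.12, 0.22 and 0.25 FPKM on CD and 0, 0, 0 and 0.04 on HFD, the only week with an overlap, through 1 CD mouse at 0.01. At week 16 CD islets held 0.06, 0.07, 0.07 and 0.10 FPKM and HFD islets 0, 0, 0 and 0.01. At week 20 the values were 0.07, 0.08, 0.12 and 0.19 on CD and 0, 0, 0.01 and 0.01 on HFD. Every HFD mouse lay below every CD mouse at both weeks. At week 24 they were 0.05, 0.06, 0.13 and 0.19 on CD and 0, 0, 0.03 and 0.04 on HFD, again apart.

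With no filter, the islet difference in Cyp1a1 over 6 weeks was -0.16 log2 units (SE 0.0223, adjusted p = 5.8e-07, limma), and 30.8% of 19861 genes were called in this fit. With a pseudocount of 0.1, which compresses low values less, it was -0.99 log2 units (SE 0.108, adjusted p = 2.0e-09). Permuting the diet labels within weeks 100000 times gave a two-sided p of 1e-05, the smallest these permutations can give, among 7 such tests of the genes under the filter. In exact permutation tests by week (12 tests in both tissues, smallest possible p 0.029) the islet p was 0.029 at all weeks but week 12, where it was 0.0571. The share of all genes whose diets did not overlap in islets was 3.39%, 12.6%, 9.61%, 15.4%, 12.7% and 14.3% from week 4 to week 24, and Cyp1a1 was among them at 5 of 6 weeks. In the weekly limma fits with no filter it was called at week 16 (adjusted p = 0.0086) and week 20 (0.045) and not at the other weeks, where the adjusted p was between 0.11 and 0.71. The share of all genes called in these fits was 0%, 0.826%, 3.15%, 9.14%, 3.2% and 5.86% from week 4 to week 24. At week 4, 0 of 17900 genes were called, so the missing call of Cyp1a1 there says nothing about this gene. Over 6 weeks, with the filter, 2 of 5 ductal markers fell in islets and 0 rose. Of 5 stromal markers 1 rose and 1 fell, and of 8 endothelial markers 2 rose and 2 fell. Of all islet genes 16.9% rose and 20.9% fell. The glucagon gene Gcg had a mean of 11526 FPKM on CD and 5320 on HFD. The part of cell types in the islet values of Cyp1a1 was not tested.

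In liver, Cyp1a1 was 0.370 FPKM ± 0.188 (SD, n = 24) on CD and 0.226 ± 0.0924 on HFD. At week 8 CD livers held 0.35, 0.42, 0.48 and 0.67 FPKM and HFD livers 0.19, 0.21, 0.28 and 0.39. At week 12 the values were 0.35, 0.45, 0.63 and 0.91 on CD and 0.16, 0.21, 0.26 and 0.30 on HFD. The diets were apart only at week 12, where 13.7% of all liver genes did not overlap. At weeks 4, 20 and 24 the means differed by less than the spread between mice. At week 16 CD livers held 0.25, 0.38, 0.44 and 0.50 FPKM and HFD livers 0.09, 0.18, 0.21 and 0.29. At week 4 the means were 0.297 FPKM ± 0.0885 (n = 4) on CD and 0.275 ± 0.0755 on HFD. At week 20 they were 0.27 ± 0.157 on CD and 0.175 ± 0.124 on HFD, and at week 24 they were 0.195 ± 0.0947 and 0.215 ± 0.122. With no filter the difference over 6 weeks was -0.15 log2 units (SE 0.0376, adjusted p = 0.0018, limma, 30.5% of 18453 genes called), and permutation within weeks gave p = 0.00055. The exact permutation p was 0.029 at week 12, 0.0571 at weeks 8 and 16 and between 0.4 and 0.83 at the other weeks.

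**Figure D2:**
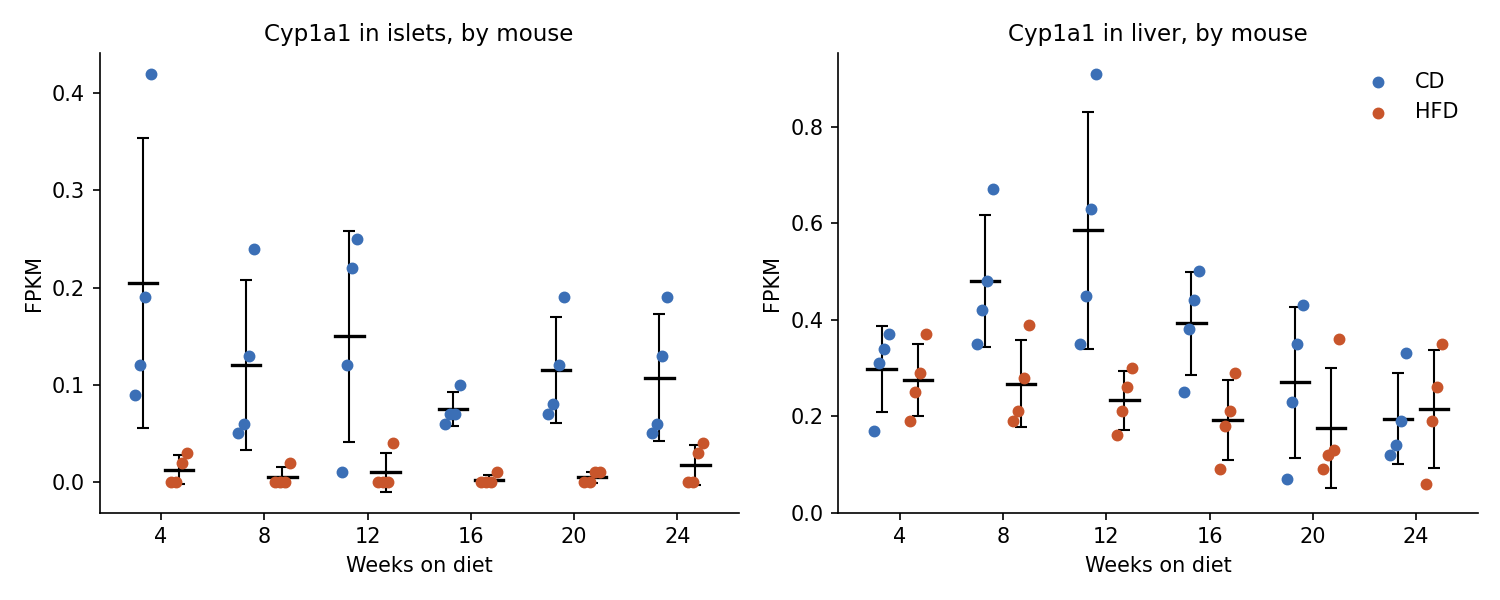
Cyp1a1 in FPKM in islets (left) and liver (right) against weeks on diet, with 1 point per mouse, black lines for the mean and bars for the SD of 4 mice. In islets the HFD mice (orange) lie at or below 0.04 FPKM, and in liver the diets are apart only at week 12.

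Cyp1a1 in liver was a small share of Cyp1a2, 0.111% ± 0.0694 (SD, n = 24) on CD and 0.136% ± 0.0942 on HFD, with ranges from 0.0197% to 0.344% and from 0.0278% to 0.401%. These shares bear on reads that the 2 genes could share, whose part in the liver values of Cyp1a1 was not tested. In islets Cyp1a2 was at or below 0.04 FPKM on CD, below the Cyp1a1 mean, and 16 of 24 CD islet libraries listed it at 0. Whether mice high in Cyp1a1 for their group were high in other members was asked on deviations from the mean of the 4 mice of the same diet and week, in a family of 16 relations over 48 mice. Cyp1a1 and Cyp1a2 in liver had a Pearson r of -0.029 (permutation p = 0.84, adjusted p = 0.95) and a Spearman rho of 0.041 (p = 0.78, adjusted p = 0.92). Without the 2 mice farthest from the median r was 0.026, and it was -0.078 within CD and 0.017 within HFD. Cyp1a1 in islets and in liver of the same mouse had an r of -0.26 (permutation p = 0.077, adjusted p = 0.62) and a rho of -0.17 (p = 0.25, adjusted p = 0.71), with r = -0.18 without the 2 farthest mice, -0.34 within CD and 0.070 within HFD. The lowest raw p was that of liver Cyp1a1 with Cyp1b1, with r = 0.35 (permutation p = 0.013, adjusted p = 0.21) and rho = 0.28 (p = 0.058, adjusted p = 0.71), and r was 0.23 without the 2 farthest mice, 0.63 within CD and 0.055 within HFD. None of the 16 relations passed adjustment.

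Islet Cyp1a2 was near 0 throughout, with a median of 0 FPKM on CD (highest 0.04) and 0.025 on HFD (highest 0.30). With no filter the difference was 0.047 log2 units (SE 0.0193, adjusted p = 0.061), and permutation within weeks gave an unadjusted p of 0.00074. It was called with a pseudocount of 0.1 (0.30 log2 units, adjusted p = 0.027) and with insulin left out of the islet total (0.070 log2 units, adjusted p = 0.042). In these fits 31% and 39.6% of 19861 genes were called. The 2 HFD islet libraries with the highest Cyp1a2, at 0.30 and 0.24 FPKM, also had the highest Alb of the 48 islet libraries, at 48.84 and 14.49 FPKM. Islet Alb had a median of 0.58 FPKM on CD and 2.78 on HFD, and the pericentral hepatocyte gene Cyp2e1 a median of 0.105 and 0.43. Alb also differed by week. It was between 3.72 and 13.29 FPKM in the CD islets of weeks 12 and 16, and at most 0.78 in the islets of week 20 on both diets. Islet Cyp1a2 was above 0 in all 4 CD mice of week 12 and listed at 0 in every mouse of week 20. The summed hepatocyte markers, all 9 of which are in the table, lay between 553 and 1065 FPKM in CD islets and between 255 and 1070 in HFD islets, with 1 of 9 below a mean of 0.1 FPKM on CD and 0 on HFD. The sum had a median of 854 FPKM on CD and 591 on HFD, so most of it came from genes of the list other than Alb. Their source in islets was not tested. Of the 9 markers, 3 passed the filter in islets, and 0 of the 3 rose and 2 fell on HFD, where 16.9% of all islet genes rose and 20.9% fell. With insulin left out 5 passed, 1 rose and 1 fell, where 5215 of 12024 genes rose and 1262 fell. The part of liver RNA in the islet values of Cyp1a2 was not tested.

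Cyp1b1, which in other tissues metabolises oestrogens and retinoids and is typical of stromal rather than epithelial cells, was 0.106 FPKM ± 0.0517 (SD, n = 24) on CD and 0.132 ± 0.0575 on HFD in liver. The diets overlapped at all 6 weeks. The difference with no filter was 0.033 log2 units (SE 0.0167, adjusted p = 0.14), with an unadjusted p of 0.048 by permutation within weeks, among the 7 such tests. In islets it was 0.217 FPKM ± 0.154 on CD and 0.218 ± 0.203 on HFD, a difference of -0.0043 log2 units (SE 0.0506, adjusted p = 0.96), with p = 0.94 by permutation within weeks. Beside these values, the summed stromal markers in liver ranged from 30.0 to 94.3 FPKM on CD and from 52.3 to 174 on HFD, and 6 of 6 tested stromal markers rose, where 34.4% of all liver genes rose. In bulk tissue more cells of a type and more RNA per cell cannot be told apart, and the part of stromal cells in Cyp1b1 was not tested.

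Ahr, the receptor itself, did not pass the test for diet in either tissue. In liver it was 6.43 FPKM ± 2.02 (SD, n = 24; lowest 2.58, median 6.20, highest 10.83) on CD and 7.10 ± 2.08 (3.14, 7.23 and 11.29) on HFD. The difference was 0.13 log2 units (SE 0.0991, adjusted p = 0.30). In islets it was 1.61 FPKM ± 0.367 on CD and 1.6 ± 0.322 on HFD, with a difference of -0.00022 log2 units (SE 0.0379, adjusted p = 1.00) where 37.8% of 11556 genes were called. The diets overlapped at all 6 weeks in both tissues. The nearest to a separation was liver at week 8, with 4.06, 4.68, 5.17 and 5.80 FPKM on CD and 5.08, 6.95, 8.33 and 8.73 on HFD (0.47 log2 units, SE 0.156, adjusted p = 0.11), which was called without mouse HFD217 (0.61 log2 units, adjusted p = 0.015).

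In islets Ahr changed among weeks on CD (F-test, adjusted p = 0.00027; 79.1% of genes called) and on HFD (adjusted p = 6.6e-05; 85.2% called). Week 12 was lowest on both diets, with 0.94, 1.07, 1.11 and 1.24 FPKM on CD and 0.90, 0.95, 1.12 and 1.19 on HFD. The 4 CD and 4 HFD mice of this week covered the same range. In liver Ahr changed among weeks on CD (adjusted p = 0.014), where it stood at 2.58, 2.58, 5.62 and 5.93 FPKM at week 4 and 6.03, 7.18, 8.68 and 10.83 at week 24, while HFD did not pass (adjusted p = 0.24). The islet shares of called genes show that most genes moved among weeks, and weeks may be handling batches.

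Tiparp encodes an ADP-ribosyltransferase that modifies AHR and limits its activity, and it responds to AHR ligands in many cell types. In liver it was 1.20 FPKM ± 0.347 (lowest 0.34, median 1.19, highest 1.93) on CD and 1.43 ± 0.489 (0.71, 1.32 and 2.75) on HFD. The difference was 0.14 log2 units (SE 0.0645, adjusted p = 0.082), and 0.074 (adjusted p = 0.35) with median ratio scaling. At week 16 CD livers held 1.08, 1.09, 1.22 and 1.28 FPKM and HFD livers 1.38, 1.70, 1.89 and 1.90. This was the only week without overlap in liver, with HFD higher (0.32 log2 units, SE 0.0910, adjusted p = 0.062). Of all liver genes 11.9% did not overlap at this week.

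In islets Tiparp was 3.25 FPKM ± 0.758 on CD and 3.60 ± 0.859 on HFD, a difference of 0.11 log2 units (SE 0.050, adjusted p = 0.074). It was called with median ratio scaling (0.14, adjusted p = 0.012) and with Ins1 and Ins2, the 2 insulin genes that dominate islet libraries, left out of the islet total (0.19, adjusted p = 0.0023). Of 11556 islet genes tested 37.8% were called, 1951 of them higher and 2418 lower on HFD. With median ratio scaling 48.2% of 11528 genes were called, 3437 higher and 2116 lower. With insulin left out 53.9% of 12024 genes were called, 5215 higher and 1262 lower. At week 8 CD islets held 2.82, 3.35, 3.36 and 3.71 FPKM and HFD islets 3.73, 3.73, 4.48 and 5.01, the only islet week without overlap (0.28 log2 units, SE 0.101, adjusted p = 0.11). The gap between the nearest mice was 0.02 FPKM, and 12.6% of all islet genes did not overlap at this week. The share of genes called in islets was 0%, 5.27%, 4.53%, 8.45%, 4.74% and 8.3% from week 4 to week 24, and neither Tiparp nor Ahr was called at any of these weeks. At week 4, where limma called 0 of 11569 islet genes, 854 had an unadjusted p under 0.05, and 5 were called when all 12 groups were fitted together. Tiparp changed among weeks in islets on CD (adjusted p = 0.00017) and on HFD (adjusted p = 1.8e-05), again with week 12 lowest on both diets, and in liver on HFD (adjusted p = 0.039) but not on CD (adjusted p = 0.26).

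**Figure D3:**
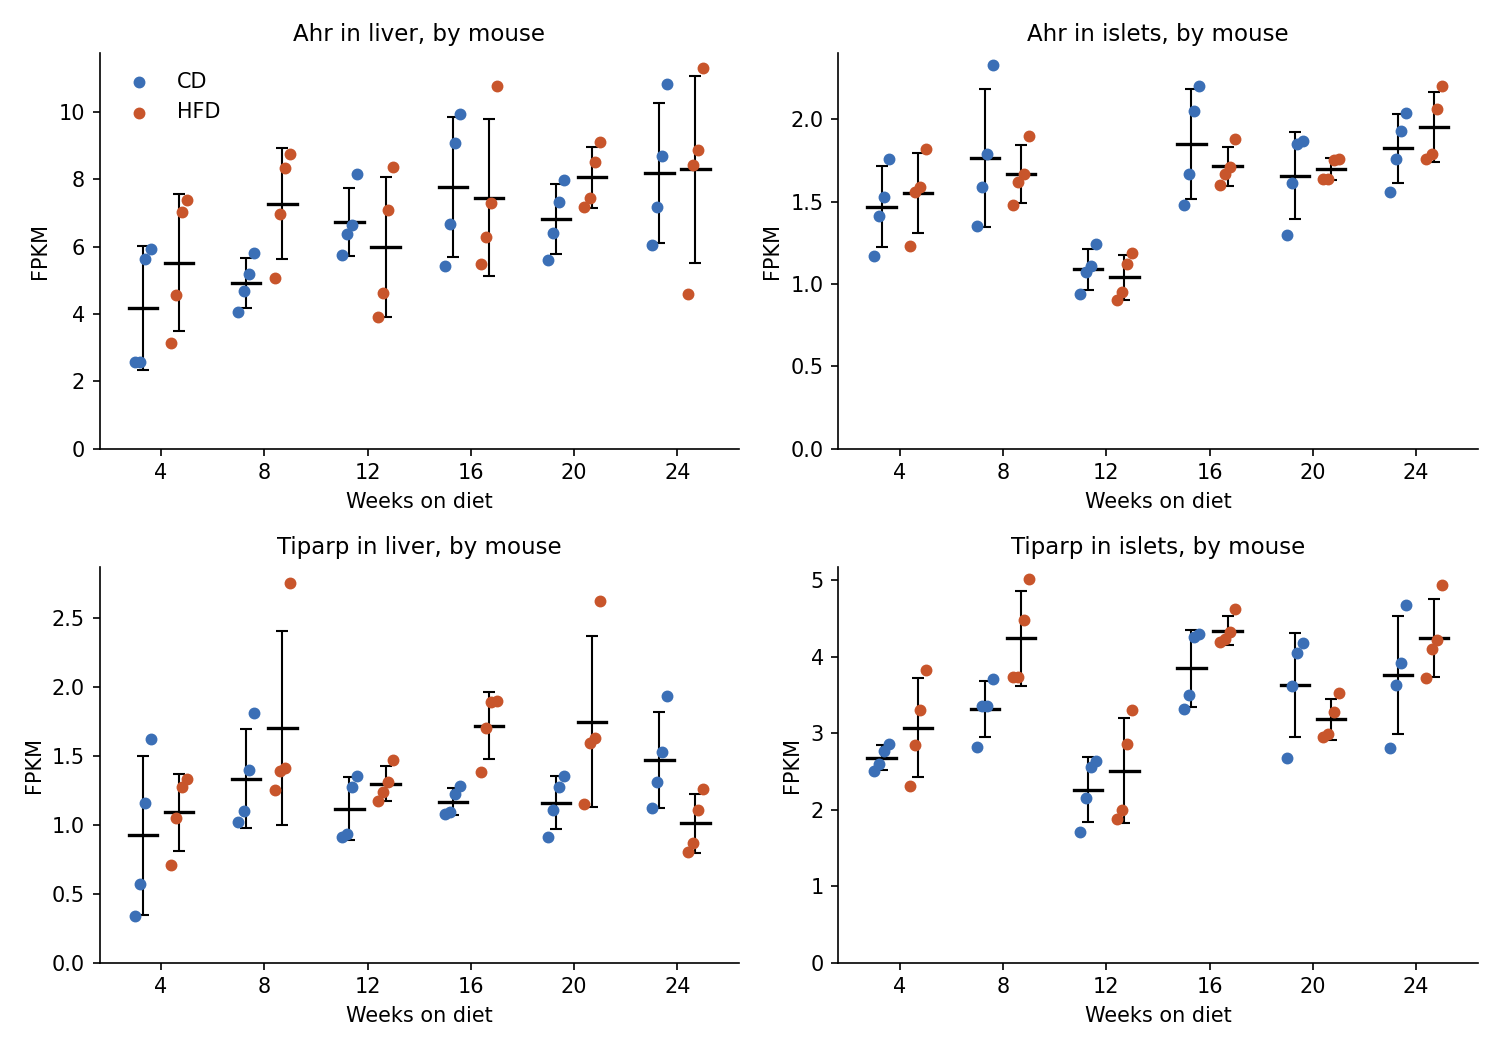
Ahr (top) and Tiparp (bottom) in FPKM in liver (left) and islets (right) against weeks on diet, with 1 point per mouse, black lines for the mean and bars for the SD of 4 mice. CD (blue) and HFD (orange) overlap in nearly all weeks, and islet values of both genes are lowest at week 12.

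Ahrr, which encodes the AHR repressor, was at or below 0.06 FPKM in all 96 libraries. In liver the difference was -0.00055 log2 units (SE 0.0065, adjusted p = 0.97), with p = 0.96 by permutation within weeks. In islets it was 0.0229 FPKM ± 0.0130 on CD and 0.0150 ± 0.0118 on HFD, a difference of -0.011 log2 units (SE 0.0048, adjusted p = 0.074), with an unadjusted p of 0.024 by permutation within weeks. The HFD minus CD difference late against early was not called for any of the 6 genes in either tissue, with the adjusted p between 0.47 and 0.96, and 2.63% of genes were called in islets.

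**Figure D4:**
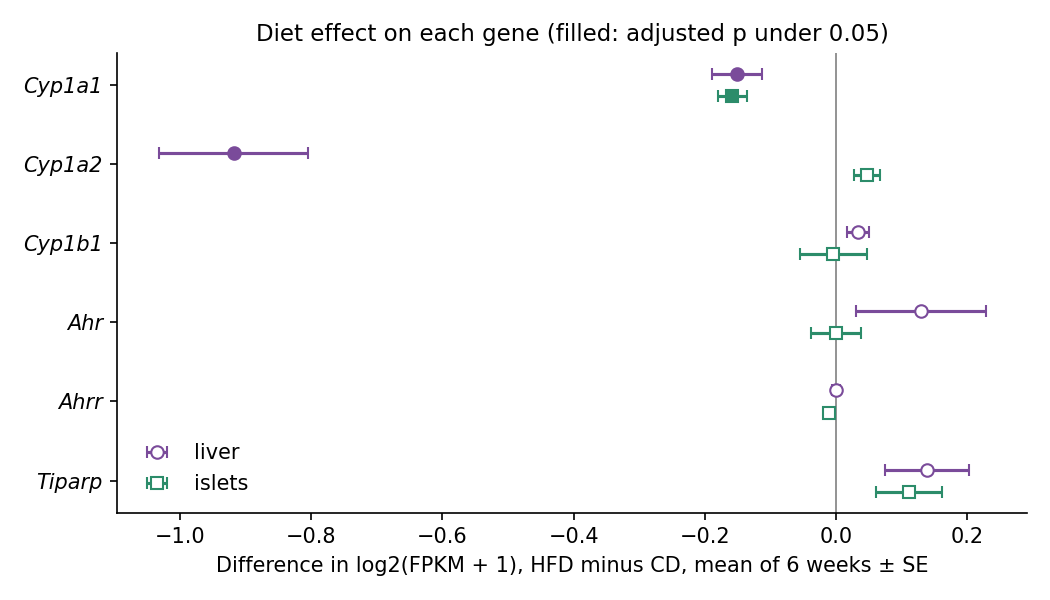
Diet effect on each of the 6 genes, HFD minus CD, as the mean of 6 weekly differences in log2(FPKM + 1) with bars for the SE, in liver (circles) and islets (squares). Filled symbols mark an adjusted p under 0.05, which are Cyp1a1 in both tissues and Cyp1a2 in liver.

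Whether the diet effect differed between the tissues was tested as the liver effect minus the islet effect (limma over all 96 libraries, 42.9% of 12566 genes called). It was 0.13 log2 units for Ahr (SE 0.107, adjusted p = 0.33) and 0.027 for Tiparp (SE 0.0824, adjusted p = 0.82). For Cyp1a2 no such test is given, since its islet levels near 0 hold the islet effect near 0 on this scale. For Cyp1a1 the answer depended on the scale. With no filter it was 0.0067 log2 units (SE 0.0440, adjusted p = 0.92, 35.8% of genes called), and with a pseudocount of 0.1 it was 0.52 (SE 0.171, adjusted p = 0.013), the decrease then being larger in islets.

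Among the partners of AHR, 4 of 7 tested genes rose in liver on HFD and 0 fell (median 0.22 log2 units, against 0.073 for all genes). Of all liver genes tested 34.4% rose and 6.88% fell, the shares against which this and the following liver counts can be read. With median ratio scaling 3 of the 7 rose. Among the 4 that rose without that scaling were the dimer partner Arnt (0.23, SE 0.05, adjusted p = 0.00056) and the chaperones Hsp90ab1 (0.25, SE 0.06, adjusted p = 0.0017, and 0.13 with adjusted p = 0.10 with that scaling) and Hsp90aa1 (0.55, SE 0.14, adjusted p = 0.0020). In islets 5 of 9 rose and 1 fell (median 0.12, against -0.0060), where 16.9% of all islet genes rose and 20.9% fell, and 7 rose and 1 fell with median ratio scaling and with insulin left out. Hsp90aa1 (0.52) rose there as well, Arnt did not pass (0.04, adjusted p = 0.40, but 0.070 with adjusted p = 0.030 with median ratio scaling), and Arnt2, a second dimer partner best known from neural cells, fell by 0.28 log2 units (adjusted p = 2.0e-05).

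The AHR gene battery, a list of 30 genes described as AHR targets, which holds 5 of the 6 genes above, moved both ways. In liver, where 41.3% of all genes were called, 6 of 19 tested genes rose and 4 fell (median 0.058), and with median ratio scaling 4 rose and 5 fell. Cyp1a2 was one of those that fell, beside the glutathione transferase Gsta2 (-1.08, SE 0.16, adjusted p = 1.4e-06), Notum (-0.23, adjusted p = 0.014) and Htatip2 (-0.18, adjusted p = 0.045). Gsta1, whose sequence is close to that of Gsta2 so that reads may be shared, rose by 1.15 (SE 0.25, adjusted p = 0.00036), as did Nfe2l2 (0.35, adjusted p = 0.00073). The quinone reductase Nqo1, a target of the Nfe2l2 product, rose (0.30, adjusted p = 0.023) but did not pass with median ratio scaling (0.21, adjusted p = 0.10). In islets, where 37.8% of all genes were called, 4 of 14 rose and 4 fell (median -0.033), 6 rose and 4 fell with median ratio scaling, and 7 of 17 rose and 4 fell with insulin left out. Aldh1a3, an aldehyde dehydrogenase, rose by 2.14 log2 units (SE 0.15, adjusted p = 1.8e-14), while Nqo1 fell by 0.20 (adjusted p = 0.010; -0.15 with adjusted p = 0.073 with insulin left out) and the glucuronosyltransferase Ugt1a6a by 0.55 (adjusted p = 8.9e-08).

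**Figure D5:**
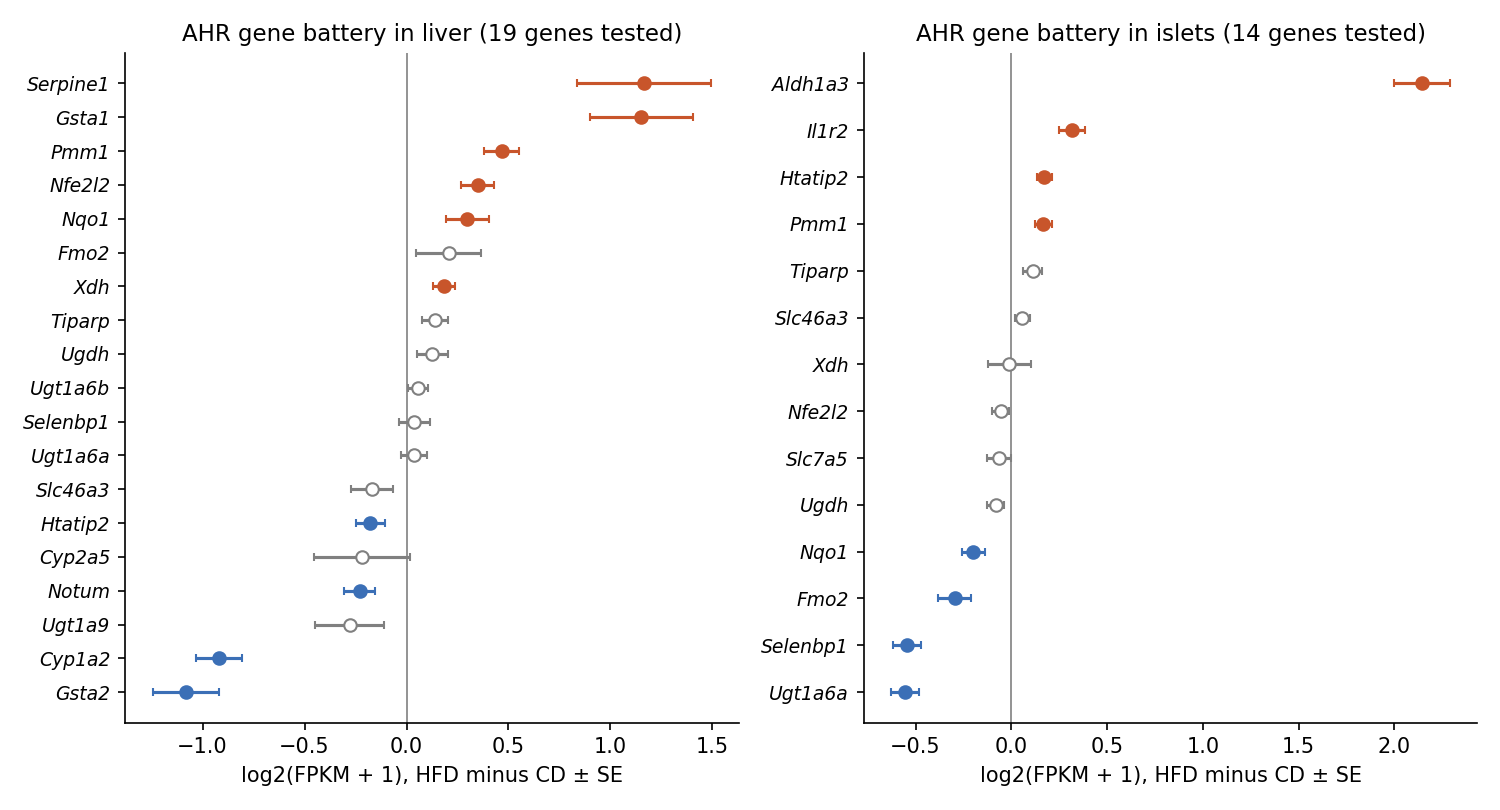
AHR gene battery in liver (left, 19 genes tested) and islets (right, 14 genes tested), as the mean of 6 weekly differences in log2(FPKM + 1), HFD minus CD, with bars for the SE. Filled orange and blue points mark genes called higher and lower, which stand on both sides of 0 in each tissue.

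Enzymes that make or clear tryptophan metabolites, some of which bind AHR, gave 2 of 11 tested genes higher and 3 lower in liver, against 34.4% and 6.88% of all genes, and 0 higher and 5 lower with median ratio scaling. Kmo rose by 0.16 (adjusted p = 0.020) but did not pass with that scaling (0.040, adjusted p = 0.60), Haao fell by 0.20 (adjusted p = 0.0027), and Tdo2, the hepatic enzyme that opens the tryptophan ring, did not pass (0.12, adjusted p = 0.21). In islets 0 of 5 rose and 3 fell, 1 rose and 2 fell with median ratio scaling, and 1 rose and 1 fell with insulin left out. Of the electron donors and haem enzymes that P450 proteins need, 6 of 12 rose in liver, where 34.4% of all genes rose, and 0 fell, and 3 rose and 1 fell with median ratio scaling. Por, the electron donor of all microsomal P450 enzymes, did not pass (-0.24, SE 0.22, adjusted p = 0.40). In islets 4 of 12 rose and 0 fell, where 16.9% of all genes rose, and 6 rose with median ratio scaling and 9 with insulin left out.

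Cyp1a2 and Ahr belong to the list of 20 pericentral hepatocyte genes, of which 6 rose and 3 fell in liver (median 0.046, and -0.029 with median ratio scaling, with equal counts), where 34.4% of all genes rose and 6.88% fell. Those that fell were Cyp1a2, Oat (-0.51, adjusted p = 8.0e-05) and Cyp27a1 (-0.24, adjusted p = 0.00025), while Glul (0.30, adjusted p = 1.6e-05) rose and Cyp2e1 did not pass (0.15, adjusted p = 0.14). Of 15 periportal genes 1 rose and 11 fell under both scalings, with a median of -0.29, and of -0.39 with median ratio scaling. Of 9 hepatocyte markers 3 fell and 0 rose, and 4 fell with median ratio scaling. Summed hepatocyte markers in liver lay between 56196 and 94320 FPKM on CD and between 52690 and 78325 on HFD, with 0 of 9 at 0. Macrophage markers rose in 8 of 9 cases in liver, with a summed range from 74.7 to 237 FPKM on CD and from 87.9 to 440 on HFD. Of 12 clock genes 1 rose and 0 fell in liver, and 0 rose and 1 fell with median ratio scaling. Immediate early genes, which respond to handling, rose in 3 of 9 cases in liver under both scalings and in 0 of 9 in islets. Their median in liver was 1.06 log2 units, against 0.073 for all genes. With median ratio scaling it was 0.996, against -0.025. Of 7 endothelial markers 0 were called in liver. Of 10 acinar markers in islets 2 fell and 0 rose (1 fell with insulin left out), where 16.9% of all islet genes rose and 20.9% fell. The part of other cell types in the liver values of Cyp1a2 was not tested.

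The genes most like a member across the 48 libraries of a tissue, by Pearson r of the same deviations, are given as a description. All genes of a library share its depth and RNA quality, which are unknown here, and their part in these r values was not tested. For liver Cyp1a2 they were Gna14 (r = 0.73), Lifr (0.68), Cyp2c44 (0.64), Ces3b (0.64) and Serpina1c (0.64), among 9982 genes. For liver Ahr they included Trp53inp1 (0.80), Cspp1 (0.75), Twf1 (0.74) and Wdr26 (0.74), and for liver Tiparp Mef2a (0.73), Esyt2 (0.73), Ifrd1 (0.72), Tsc22d2 (0.72) and Rlf (0.72). For islet Ahr they were Mef2c (0.69), Tnfaip1 (0.69), Slc31a1 (0.68), Spred1 (0.68) and Wdr77 (0.68), among 11556 genes. For islet Tiparp they were Golt1b (0.79), Dnajb4 (0.76), Trappc5 (0.75), Dnaja1 (0.74) and Umps (0.74), of which Dnajb4 and Dnaja1 encode co-chaperones. No gene named here was among the nearest of more than 1 member.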

How the data were processed

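Poly(A) RNA of islets and liver was reverse transcribed with random hexamers and sequenced on a BGISEQ-500. The authors deposited 1 table of FPKM per library, rounded to 2 decimals; the submitters' processing notes name HISAT2 2.0.4, Bowtie2 2.2.5, RSEM 1.1.12 and GRCm38.p5. Columns with the authors' own log ratios, p-values, q-values, group means and module or cluster assignments were not used. The table holds no counts, so the depth behind a value is unknown and no counting interval is given.

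FPKM were transformed to log2(FPKM + 1) and fitted with limma 3.58.1 (trend and robust variances) in R 4.3.3, with group means of diet and week and Benjamini-Hochberg adjustment over all genes tested. The weekly fits used the 8 libraries of a tissue and week and a floor of 1 FPKM, reached in 4 or more of them. The fits over 6 weeks used all 48 libraries of a tissue and the same floor in 24 or more. Alternatives were a pseudocount of 0.1, no filter, median ratio scaling, insulin left out of the islet total, fits without trend and robust variances, all 12 groups in one fit, the mouse as a block, and each library left out. The limma fits of the diet effect with the filter were checked on simulated data, with changes placed only in genes above it. The fits with no filter and the permutation tests were not checked in this way. Permutation tests and relations used scipy 1.17.1, numpy 2.4.6 and pandas 2.3.3 (Python 3.11.15), and figures matplotlib 3.10.9. Groups were read from the labels. The mouse number pairs islets and liver of the same mouse, and the deviations of both tissues correlated with a median r of 0.13 per mouse (over 0.1 in 31 of 48 mice, consensus correlation 0.053). The genes named are the 6 members, the genes of 15 lists, and the 5 nearest genes per member and tissue. The members and lists were chosen with earlier results of these data known. Reporting the genes under the filter from the fit with no filter was decided after their levels were seen. Some genes under these rules are not reported here.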

Additional observations from a re-analysis of the deposited data

Results flagged for a closer look

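The liver effect minus the islet effect of diet on Cyp1a2 was -0.97 log2 units. Islet values were near 0 on both diets and the gene met the filter through liver alone, so this value restates the liver effect and is no test of a difference between the tissues.

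In 8 of 102 groups of 4 mice with a highest value of at least 0.1 FPKM, 1 mouse stood apart from the other 3 by Dixon's test. For normally distributed values chance gives about 1 in 20. FPKM that lie near 0 and are rounded to 2 decimals need not follow that rate, so the count of 8 is a description only. In liver, Cyp1a2 was 299.9 FPKM in 1 HFD mouse at week 8 and 367.4 in 1 CD mouse at week 16, Cyp1a1 was 0.36 in 1 HFD mouse at week 20, and Tiparp was 2.75 in 1 HFD mouse at week 8. The HFD mouse with 299.9 FPKM of Cyp1a2 (HFD217) lay within the CD range, and without it the week 8 difference was -2.01 log2 units (adjusted p = 0.0012, limma). In islets, Cyp1a2 was 0.30 FPKM in 1 HFD mouse at week 12 and 0.24 in 1 at week 24, the same libraries that had the highest Alb, and Cyp1b1 was 0.48 in 1 CD mouse at week 24 and 0.17 in 1 HFD mouse at week 12.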

How the results depend on the processing

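Over 6 weeks, liver Cyp1a2 (-0.99 to -0.88 log2 units with each library left out), islet Cyp1a1 (-0.17 to -0.14) and liver Cyp1a1 (-0.16 to -0.14) kept their direction and their call under every alternative run. Tiparp in islets became called with median ratio scaling (0.14) and with insulin left out (0.19), and without 1 of 3 libraries (range 0.093 to 0.13), namely CD606, HFD118 or HFD313. Tiparp in liver became called without CD101 or HFD518 (range 0.11 to 0.17). Islet Cyp1a2 became called with a pseudocount of 0.1 (0.30), with insulin left out (0.070) and without 1 of 6 HFD libraries, HFD315, HFD316, HFD318, HFD611, HFD614 and HFD616 (range 0.033 to 0.052). Liver Cyp1b1 became called without CD502 (range 0.027 to 0.040). Islet Ahrr became called without CD101, CD205, HFD118 or HFD617 (range -0.013 to -0.00903). By permutation, whose p is not adjusted and so makes no call, islet Cyp1a2 (0.047, p = 0.00074), liver Cyp1b1 (0.033, p = 0.048) and islet Ahrr (-0.011, p = 0.024) were under 0.05. The tissue difference in the Cyp1a1 diet effect became called with a pseudocount of 0.1 (0.52). The cause was not tested.

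In the weekly fits, liver Cyp1a2 at week 8 was also called with all 12 groups in one fit (adjusted p = 0.00023, limma), as was week 20 (adjusted p = 0.023), while week 16 was not (adjusted p = 0.072); week 20 was also called without CD507 (-1.20, adjusted p = 0.047). Islet Tiparp at week 16 was called with insulin left out (0.27, adjusted p = 0.033). With the replicate block of the mouse, the tissue difference in the diet effect was 0.13 log2 units for Ahr (adjusted p = 0.32), and the block changed no call of the 6 genes. Late minus early, 6 liver genes were called, 22 with no filter, 25 also with a pseudocount of 0.1 and 45 with no filter and median ratio scaling, while in islets 468 genes were called with no filter and 496 also with a pseudocount of 0.1, against 2.63% of the 11556 tested before. Weekly counts beyond 1.5 times the main one were, in liver, 1 with each of 4 alternatives against 5 at week 4 (1.06% of genes in one fit of all groups), 0.668% of genes with no filter and 744 in that fit against 252 at week 20, and 312 in that fit against 85 at week 24. In islets they were 5 in that fit against 0 at week 4, 154 with no filter to 933 in that fit against 613 at week 8, 849 with median ratio scaling, 1116 in that fit and 3356 with insulin left out against 4.53% of genes at week 12, 1637 with no filter, 1706 also with a pseudocount of 0.1 and 3775 with insulin left out against 988 at week 16, and 1066 in that fit against 555 at week 20. With no filter 7244 islet genes were called over 6 weeks with median ratio scaling and 7864 with insulin left out, against 4369. Of the alternative values of the 6 genes 1103 kept their side of the threshold, 34 passed it newly (7 of them permutation tests with unadjusted p), 1 lost its call and 0 reversed, and of the counts of called genes 218 stayed within 1.5 times and 86 did not. Fits with no filter joined to another change, and the permutation tests, were chosen after seeing the data. Values of 2 decimals limit genes near 0.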
